A study of Mus musculus with 9 samples.

Results

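The cytochrome P450 genes were followed in mouse lung after irradiation, as 1 gene family across 9 microarrays. Members were chosen by symbol: every protein-coding gene of the mouse RefSeq table (assembly GRCm38.p6) whose symbol begins with Cyp and a digit. The table held 99 such genes, and 94 of them had at least 1 probe on the array, out of 19751 gene symbols on it. No probe was found through the table for Cyp2a5, Cyp2c40, Cyp2c69, Cyp2j12 or Cyp3a41a, and the pseudogene Cyp2d13 was left out. All 9 arrays held total RNA from lungs of male C57BL/6 mice, in 4 control samples and 5 irradiated samples. The age is given as 10 weeks, which need not be the age at collection. The labels give neither dose, lung region nor time after exposure for an irradiated array, while the study's methods describe single-dose irradiation of the left lung under Zoletil and Rompun anaesthesia, with focal and diffuse fields and several collection times, so the 5 irradiated samples may not be like replicates. RNA of triplicates was pooled before labelling, and p-values therefore measure the spread between arrays rather than between mice.

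Cytochrome P450 enzymes are haem-containing monooxygenases, most of them anchored in the endoplasmic reticulum, that insert 1 oxygen atom into a substrate with electrons handed over by P450 reductase. Families 1 to 3 act mainly on drugs, pollutants and other foreign compounds, family 4 hydroxylates fatty acids and eicosanoids at the end of the chain, and the remaining families make or clear steroids, sterols, bile acids and vitamins A and D. In the lung, the club cells of the bronchioles are the best known site of P450 activity, and their Cyp2f2 turns naphthalene into a toxic epoxide. Family 1 genes are induced through the aryl hydrocarbon receptor (AhR), many family 2 and 3 genes through the nuclear receptors CAR and PXR, and Cyp4a genes through PPAR alpha.

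Signal is given on a log2 scale after quantile normalization, and each gene is represented by its brightest probe, so that a difference of 1 is a change of 2-fold. Differences are irradiated minus control throughout. A filter on low signal, which kept probes whose median signal exceeded 1.4-fold the local background in 4 or more arrays, was passed by all 94 members. The scanner's own call of a signal well above background was stricter: it was given on every array to 51 members, on some arrays to 36 and on no array to 7. Levels of different genes are not compared, since probes differ in brightness.

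Two-sided testing with limma over 39303 probes, with Benjamini-Hochberg adjustment over all of them, called 2 of the 94 members, both lower in irradiated lungs: Cyp4a12a and Cyp4a12b, fatty acid omega-hydroxylases that form 20-HETE from arachidonic acid. That is 2.13% of the members, beside 0.152% of all 19698 genes and 0.142% of all probes called lower. No member was called higher, beside 0.264% of genes and 0.191% of probes, although 2 members reached an unadjusted p under 0.05 in that direction. An unadjusted p under 0.05 was reached by 17 members, 15 of them lower, which is 18.1% of the members beside 12.3% of genes. In 7 members every irradiated array lay below every control array, 7.45% of the members beside 1.76% of genes and 1.65% of probes, and in 1 member, Cyp7b1, every irradiated array lay above, 1.06% beside 3.4% of genes and 2.51% of probes.

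Over the whole family the differences were small. The mean was lower in irradiated lungs for 55 members (58.5%, beside 48.1% of genes) and higher for 39. The median difference was −0.08, beside 0.0085 over all genes by brightest probe and −0.0037 over all probes. Among the 51 members that passed the stricter call on every array, 36 (70.6%) were lower, beside 47.8% of genes with that property, and the median difference was −0.25, beside 0.01 over those genes. The members lay on 15 chromosomes, and 68 of the 94 lay next to another P450 gene, so neighbouring paralogs may share signal and are not independent measurements.

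**Figure D1:**
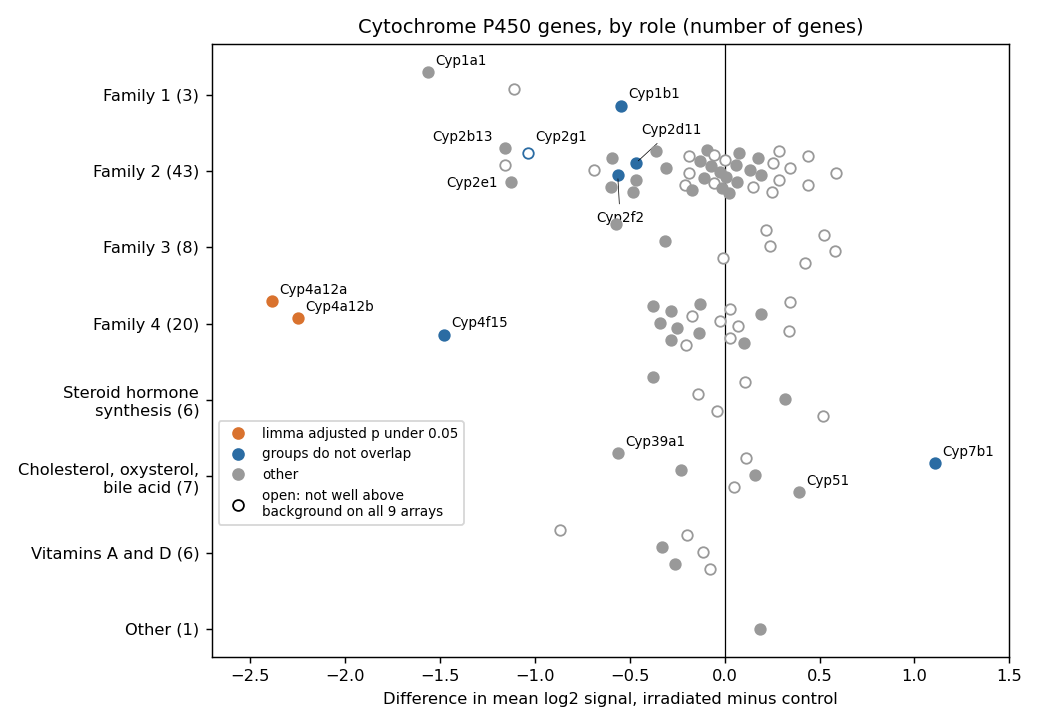
Difference in mean log2 signal (irradiated minus control, horizontal axis) of each of the 94 P450 genes, 1 point a gene, grouped by role on the vertical axis with vertical offsets only to separate points. Orange points are the 2 called genes, Cyp4a12a and Cyp4a12b, blue points are genes whose groups do not overlap, and open points are genes not well above background on all 9 arrays. Cyp7b1 is the point farthest to the right, at 1.11.

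Family 4 held both called genes. Cyp4a12a had signals of 8.52, 8.34, 7.48 and 8.83 in controls 1 to 4, and of 5.73, 6.73, 6.60, 5.20 and 5.27 in irradiated samples 1 to 5. The control range and the irradiated range did not overlap, and control 3 was the lowest control. Cyp4a12a fell by 2.39 (SE 0.40), 5.23-fold, with a limma adjusted p of 0.0455. Cyp4a12b, its neighbour on chromosome 4, had signals of 9.30, 8.96, 8.11 and 9.43 in controls and 5.94, 7.39, 7.37, 6.56 and 6.27 in irradiated samples. Again control 3 was the lowest control and the groups did not overlap. Cyp4a12b fell by 2.24 (SE 0.37), 4.74-fold, with a limma adjusted p of 0.0455. The 2 genes are close paralogs with 1 probe each, so RNA of either gene may bind both probes and the falls cannot be assigned to 1 of them.

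Both calls were narrow. Leaving out any single array other than irradiated 1 ended them, with adjusted p up to 0.159, whereas the differences stayed between −2.66 and −2.21 for Cyp4a12a and between −2.53 and −2.05 for Cyp4a12b. In the table normalized by the authors the groups of both genes overlapped, with differences of −1.51 (adjusted p = 0.252) and −1.75 (adjusted p = 0.203).

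The other Cyp4a genes lie in the same stretch of chromosome 4, and the 8 measured Cyp4a members had a median difference of −0.24, 6 lower and 2 higher. Cyp4a10, a fatty acid hydroxylase known as a PPAR alpha target, differed by −0.28 (SE 0.25) and did not pass the test (adjusted p = 0.809), with a second probe at −0.39 and a dim last one at 0.37. Cyp4a31, singled out after its values were seen, gave unlike answers by probe. Its brightest probe differed by −0.34 (SE 0.39, adjusted p = 0.866). A dimmer one read 5.61, 5.45, 5.12 and 5.83 in controls and 3.53, 3.32, 4.17, 4.07 and 2.86 in irradiated samples. That probe differed by −1.91 (SE 0.30, adjusted p = 0.0416) but was well above background on only 1 irradiated array. The remaining probe differed by −0.38.

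**Figure D2:**
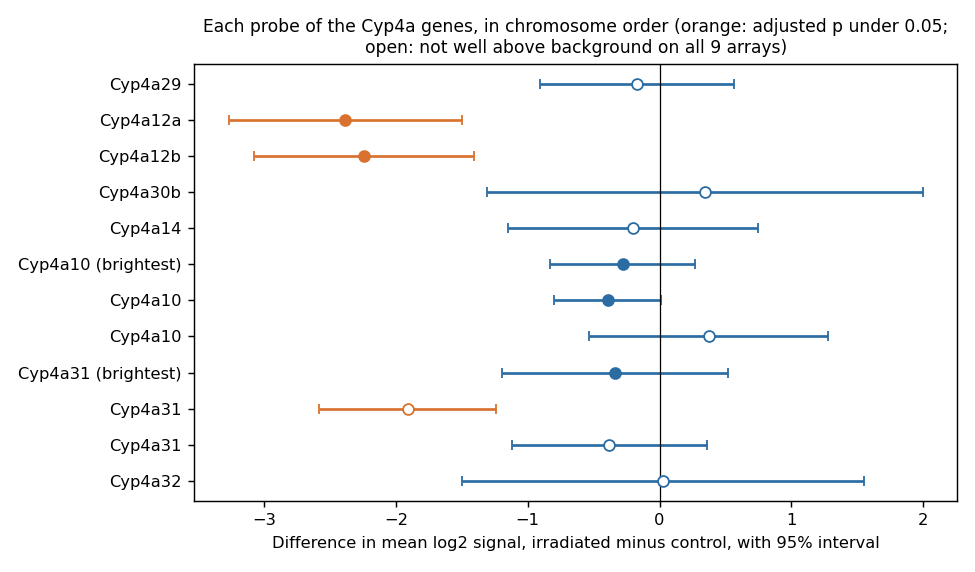
Difference in mean log2 signal (irradiated minus control, horizontal axis) with its 95% confidence interval for every probe of the 8 Cyp4a genes, 1 line a probe, in chromosome order. Orange marks probes with an adjusted p under 0.05, and open symbols mark probes not well above background on all 9 arrays. The probes of Cyp4a12a and Cyp4a12b and 1 of the 3 probes of Cyp4a31 lie at −2.39, −2.24 and −1.91, and the intervals of the other Cyp4a probes reach or cross 0.

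Cyp4f15, which hydroxylates leukotriene B4 and fatty acids, had the next largest difference of the family 4 genes. Its signals were 10.15, 10.93, 10.45 and 10.48 in controls and 9.91, 8.85, 8.75, 8.40 and 9.23 in irradiated samples. All irradiated arrays were below all controls, with irradiated 1 closest to them. The difference was −1.48 (SE 0.28), with an adjusted p of 0.0719 that misses the threshold. Without irradiated 1 it was −1.70 and passed (adjusted p = 0.0134). It also passed in the authors' table (−1.48, adjusted p = 0.0479), with scaling to the 75th percentile (adjusted p = 0.0436), with the filter on all 9 arrays (adjusted p = 0.0487) and with array weights (adjusted p = 0.0436), whereas with any other single array left out it did not pass (adjusted p up to 0.198). The 9 measured Cyp4f genes had a median difference of −0.02, 5 lower and 4 higher. Cyp4f18, which inactivates leukotriene B4 in neutrophils, differed by −0.25 (SE 0.12, adjusted p = 0.528), and Cyp4f16 by 0.19 (SE 0.12, adjusted p = 0.703). Cyp4b1, a lung P450 that activates the pulmonary toxin ipomeanol, read 15.66, 15.25, 15.70 and 15.51 in controls and between 15.19 and 15.36 in irradiated samples. Its difference of −0.28 (SE 0.10) did not pass (adjusted p = 0.329). Over the 20 family 4 members, 13 were lower and 7 higher, with a median difference of −0.15 that ran from −0.25 to −0.072 over the alternatives.

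**Figure D3:**
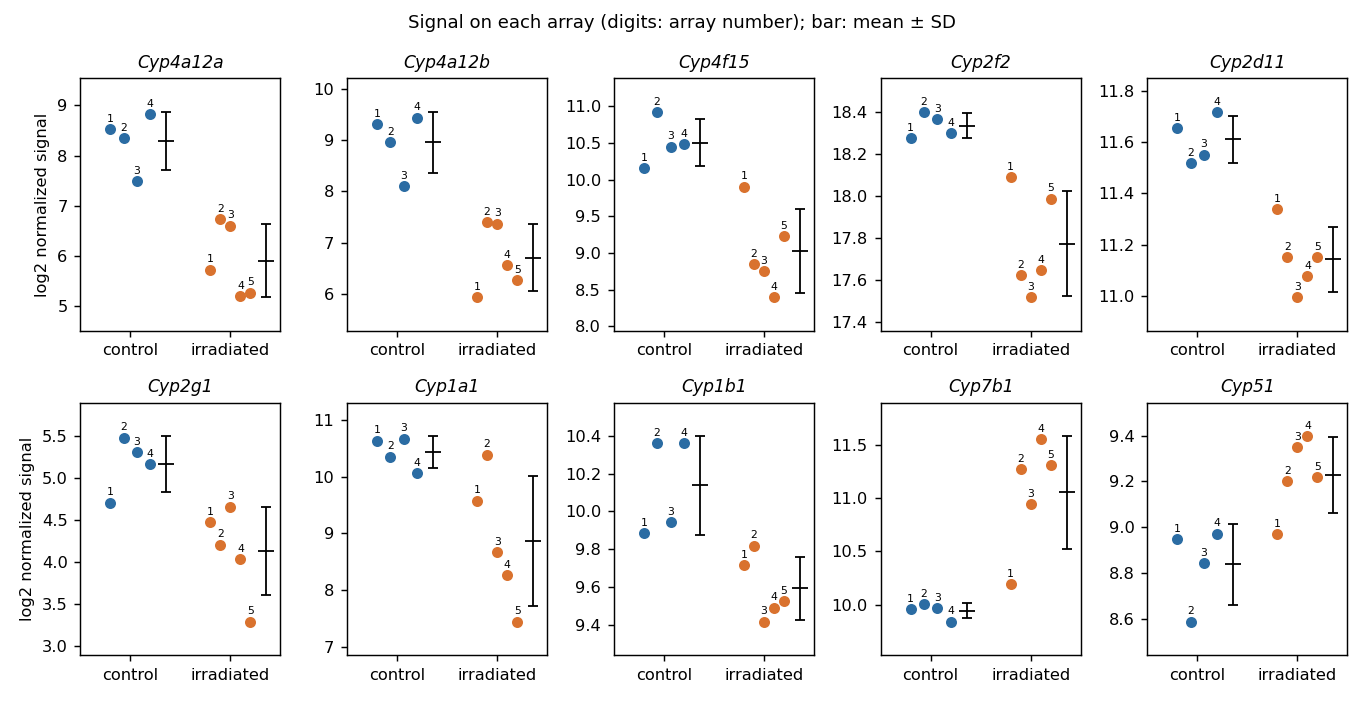
log2 normalized signal of 10 P450 genes on each array (vertical axis, a separate scale for each gene), 4 control and 5 irradiated, with the array number at each point and the mean ± SD as a bar. Irradiated points lie below all control points for the first 6 genes and Cyp1b1, above them for Cyp7b1, and among them for Cyp1a1 (irradiated 2) and Cyp51 (irradiated 1).

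Family 1 has 3 genes in the mouse and all 3 were lower in irradiated lungs, though none passed the test. Cyp1a1, which oxidizes polycyclic hydrocarbons and is the usual readout of AhR activity, read 10.63, 10.35, 10.67 and 10.06 in controls and 9.58, 10.39, 8.67, 8.26 and 7.44 in irradiated samples. Irradiated 2 lay within the control range and the other 4 below it. The difference was −1.56 (SE 0.50, adjusted p = 0.289). Cyp1b1, which acts on polycyclic hydrocarbons and oestradiol, read 9.88, 10.36, 9.94 and 10.36 in controls and 9.71, 9.82, 9.42, 9.49 and 9.52 in irradiated samples. The groups did not overlap but lay close together, and the difference was −0.55 (SE 0.15, adjusted p = 0.190). Cyp1a2, a mainly hepatic enzyme that metabolizes caffeine, was well above background on 2 control arrays and on no irradiated array, so no fold is given for it.

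The windows around the starts of the family 1 genes are shown because AhR acts through a core sequence in their promoters, and the window of Cyp2f2 is shown as that of another lung P450 whose groups did not overlap. They are RefSeq sequence of GRCm38.p6, 250 bases before to 50 after the annotated start, 5′ to 3′ on the gene's strand, with the core GCGTG or its reverse complement CACGC in capitals. They lie at chr9:57697363-57697662 on the plus strand (Cyp1a1), chr9:57683606-57683905 on the minus strand (Cyp1a2), chr17:79715012-79715311 on the minus strand (Cyp1b1) and chr7:27119705-27120004 on the plus strand (Cyp2f2).
Cyp1a1: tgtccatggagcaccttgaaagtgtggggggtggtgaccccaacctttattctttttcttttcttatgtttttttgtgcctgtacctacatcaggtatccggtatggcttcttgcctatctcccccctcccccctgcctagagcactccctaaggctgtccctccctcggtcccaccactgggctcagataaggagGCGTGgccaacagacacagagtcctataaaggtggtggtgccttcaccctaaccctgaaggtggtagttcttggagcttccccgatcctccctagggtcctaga
Cyp1a2: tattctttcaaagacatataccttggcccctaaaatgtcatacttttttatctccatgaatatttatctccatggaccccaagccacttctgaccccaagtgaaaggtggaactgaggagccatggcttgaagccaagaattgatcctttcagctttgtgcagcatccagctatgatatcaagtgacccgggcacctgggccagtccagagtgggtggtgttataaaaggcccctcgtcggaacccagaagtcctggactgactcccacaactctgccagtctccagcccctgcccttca
Cyp1b1: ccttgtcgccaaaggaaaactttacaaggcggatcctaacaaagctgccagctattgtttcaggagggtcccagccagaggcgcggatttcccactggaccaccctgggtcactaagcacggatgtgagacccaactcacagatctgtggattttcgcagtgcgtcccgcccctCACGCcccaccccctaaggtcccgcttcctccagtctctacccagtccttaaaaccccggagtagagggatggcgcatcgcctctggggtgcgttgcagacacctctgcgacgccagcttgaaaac
Cyp2f2: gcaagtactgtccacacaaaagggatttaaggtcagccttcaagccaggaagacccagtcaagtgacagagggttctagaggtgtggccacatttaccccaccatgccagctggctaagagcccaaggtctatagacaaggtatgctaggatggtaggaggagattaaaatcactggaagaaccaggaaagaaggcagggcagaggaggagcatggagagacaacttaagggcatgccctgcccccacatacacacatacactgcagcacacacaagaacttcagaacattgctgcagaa

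The core was found once before the start of Cyp1a1 (54 bases, sense strand) and once before that of Cyp1b1 (76 bases, antisense strand). The windows of Cyp1a2 and Cyp2f2 do not hold these letters. Sequence beyond the windows was not searched, so sites of AhR farther from the starts would not be seen. Of 82 windows that belong to 72 members, 17 (20.7%) held the core on either strand, beside 32.4% of the 32851 windows of all genes, so a match is common and describes the sequence alone.

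No gene of the AhR system measured here was called. Ahr itself differed by −0.29 (SE 0.15, adjusted p = 0.592), and its repressor gene Ahrr by −0.19 (SE 0.28, adjusted p = 0.909). Of 7 AhR target genes measured outside the P450 family, Ahrr among them, none was called, 3 were higher and 4 lower, and the median difference was −0.19. In the same list, Nqo1, a quinone reductase, differed by 0.04 (SE 0.23) and Tiparp, a mono-ADP-ribosyltransferase, by 0.26 (SE 0.15). The aldehyde dehydrogenase gene Aldh3a1, singled out after its values were seen, read 13.79, 14.31, 14.85 and 14.25 in controls and 12.73, 13.26, 13.39, 13.22 and 13.30 in irradiated samples. All irradiated arrays lay below all controls, and the difference was −1.12 (SE 0.20), with an adjusted p of 0.0572 that misses the threshold.

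Family 2, without Cyp2r1 (counted with the vitamin enzymes), is the largest group, with 43 members and no call. Of these, 25 were lower and 18 higher, with a median difference of −0.06. That median ran from −0.21, with percentile scaling, to −0.0047 over the alternatives. Cyp2f2, the club cell naphthalene enzyme, read 18.28, 18.40, 18.36 and 18.30 in controls and 18.09, 17.62, 17.52, 17.65 and 17.99 in irradiated samples. Every irradiated array was below the 4 closely grouped controls, and the difference was −0.56 (SE 0.12), 1.48-fold, with an adjusted p of 0.110. Cyp2d11, of the mouse Cyp2d cluster on chromosome 15, read 11.66, 11.52, 11.55 and 11.72 in controls and 11.34, 11.15, 10.99, 11.08 and 11.15 in irradiated samples. The groups were apart here too, and the difference was −0.47 (SE 0.09, adjusted p = 0.0812). Without irradiated 1 both genes passed, Cyp2f2 at −0.64 (adjusted p = 0.0305) and Cyp2d11 at −0.52 (adjusted p = 0.0336). Cyp2g1, best known from olfactory mucosa, read 4.71, 5.48, 5.31 and 5.16 in controls and 4.47, 4.21, 4.66, 4.03 and 3.29 in irradiated samples. It was dim, well above background on 3 control and 2 irradiated arrays, and its difference of −1.04 (SE 0.30, adjusted p = 0.232) shrank to −0.35 under another background correction.

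Larger but more scattered differences were seen in 2 other family 2 genes. Cyp2e1, which metabolizes ethanol and paracetamol and was singled out after its values were seen, read 13.32, 13.36, 12.58 and 12.42 in controls and 10.69, 12.72, 12.00, 11.59 and 11.99 in irradiated samples. Irradiated 2 lay among the controls, the difference was −1.12 (SE 0.37, adjusted p = 0.297), and a second probe gave −1.02. Cyp2b13 ranged from 6.82 to 9.02 in controls and from 5.84 to 7.59 in irradiated samples, with a difference of −1.16 (SE 0.46, adjusted p = 0.409). By contrast, Cyp2b10, the usual readout of CAR activity, stood between 16.35 and 16.72 in controls and between 16.35 and 17.08 in irradiated samples, with a difference of 0.07 (SE 0.15, 95% interval −0.26 to 0.39). Cyp2c23, a renal arachidonic acid epoxygenase, differed by 0.19 (SE 0.38).

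Subfamilies of family 2 were mixed in direction. The 13 Cyp2c genes had a median difference of 0.0008, 7 higher and 6 lower, and only 5 of them passed the stricter call on every array. The 8 Cyp2d genes had a median of −0.17, 4 lower and 4 higher. The 5 Cyp2b genes had a median of 0.07 and the 6 Cyp2j genes, which form epoxides of arachidonic acid, a median of −0.03.

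Family 3 had 8 measured genes, and 2 of them passed the stricter call on every array. Cyp3a13, the member commonly found outside the liver, ranged from 8.62 to 9.48 in controls and from 7.73 to 8.76 in irradiated samples, with a difference of −0.57 (SE 0.25, adjusted p = 0.474). Cyp3a11, the main PXR-induced drug-metabolizing enzyme of mouse liver, differed by −0.31 (SE 0.25, adjusted p = 0.782). The other 6 were dim and none of the 8 was called. Their median difference was 0.23, with 5 higher, but 0.034 under another background correction and −0.13 with percentile scaling.

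Among the enzymes of cholesterol, oxysterol and bile acid metabolism, 5 of 7 were higher, with a median difference of 0.11 that became −0.05 when arrays were scaled to their 75th percentile and 0.0036 under another background correction. Cyp7b1, the oxysterol 7 alpha-hydroxylase that clears 25- and 27-hydroxycholesterol, read 9.96, 10.01, 9.97 and 9.84 in controls and 10.19, 11.27, 10.94, 11.55 and 11.31 in irradiated samples. The controls were tightly grouped, every irradiated array was above them and irradiated 1 stood nearest. The difference was 1.11 (SE 0.24), 2.16-fold, with an adjusted p of 0.0999 that misses the threshold. Without irradiated 1 it was 1.32 and passed (adjusted p = 0.00786), whereas in the authors' normalized table it was 0.59 (adjusted p = 0.557) and the groups overlapped. Cyp51, the lanosterol demethylase of cholesterol synthesis, read 8.95, 8.59, 8.84 and 8.97 in controls and 8.97, 9.20, 9.35, 9.40 and 9.22 in irradiated samples. Only irradiated 1 lay within the control range, and the difference was 0.39 (SE 0.13, adjusted p = 0.324). Of 21 other cholesterol synthesis enzymes, 17 were higher and 4 lower, none was called, and the median difference was 0.15. Cyp39a1, which hydroxylates 24-hydroxycholesterol, differed the other way, by −0.56 (SE 0.22, adjusted p = 0.409), with irradiated 1 at 12.00 and the other 4 between 10.84 and 11.21, below the controls at 11.56 to 12.16.

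The 6 enzymes of vitamins A and D were all lower on average, with a median difference of −0.23 and no call. Only 2 of the 6 were well above background on every array, the median was −0.036 under another background correction, and the dim Cyp26a1 was slightly higher with that correction (0.029) and in the authors' table (0.076). Cyp26b1, which clears retinoic acid, spanned 10.95 to 12.91 in controls and 11.89 to 12.96 in 4 irradiated samples, with irradiated 2 far below at 8.96. Its difference of −0.33 (SE 0.74) became 0.33 without that array. Cyp2r1, a vitamin D 25-hydroxylase, differed by −0.26 (SE 0.19, adjusted p = 0.742). Its second probe, dimmer but well above background on every array, gave −0.036. Of the 6 steroid hormone enzymes, 3 were higher and 3 lower, with a median of 0.03 that turned to −0.07 with percentile scaling and to −0.0091 in the authors' table. Cyp17a1, the 17 alpha-hydroxylase, differed by −0.37 (SE 0.26) and Cyp21a1, the 21-hydroxylase, by 0.32 (SE 0.25), neither past the threshold, and a dim second probe of Cyp21a1 gave −0.33. The orphan enzyme Cyp20a1 differed by 0.19 (SE 0.13).

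The scans themselves fell into pairs. By the position of the scanned image and the local background level, control 1 went with irradiated 2, control 2 with irradiated 3, control 3 with irradiated 4 and control 4 with irradiated 5, while irradiated 1 had no partner. What the arrays of a pair shared beyond this is not given in the sources used here. Within the 4 pairs, 20 members (21.3%, beside 17.3% of genes) were lower in the irradiated array each time and 6 (6.38%, beside 17.9% of genes) were higher each time. Cyp2d11 was the steadiest of those named, at −0.50, −0.52, −0.47 and −0.57 in the order of the pairs. Cyp4a12a gave −1.79, −1.73, −2.29 and −3.56, Cyp4f15 −1.30, −2.18, −2.05 and −1.25, and Cyp7b1 1.31, 0.94, 1.58 and 1.46. Cyp1a1 gave −0.25 in the first pair and between −2.61 and −1.69 in the others, and Cyp2b10 gave values on both sides of 0.

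**Figure D4:**
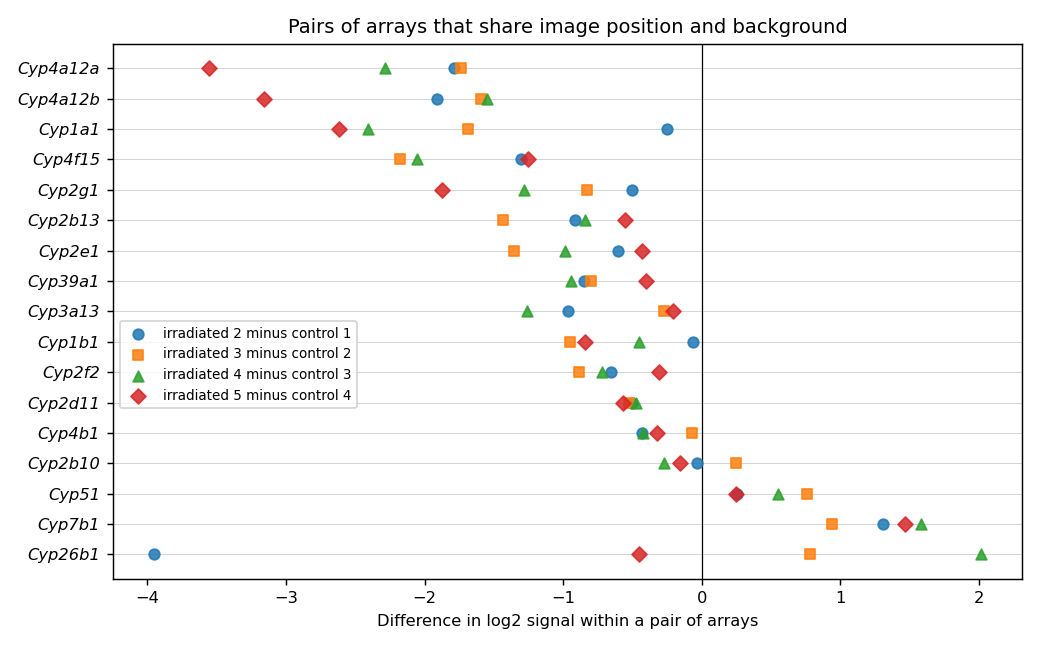
Difference in log2 signal (irradiated minus control array, horizontal axis) within each of the 4 pairs of arrays that share image position and background, for 17 P450 genes, 1 symbol a pair. All 4 symbols lie left of 0 from Cyp4a12a down to Cyp4b1 and right of 0 for Cyp51 and Cyp7b1, and Cyp26b1 spreads from −3.95 to 2.02.

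With the pair as a block, which drops irradiated 1 from the estimate, 7 members passed the limma threshold: Cyp4a12a (−2.34, adjusted p = 0.0422), Cyp4a12b (−2.05, adjusted p = 0.0429), Cyp4f15 (−1.70, adjusted p = 0.0312), Cyp2f2 (−0.64, adjusted p = 0.0486), Cyp2d11 (−0.52, adjusted p = 0.0269), Cyp39a1 (−0.75, adjusted p = 0.0394) and Cyp7b1 (1.32, adjusted p = 0.0258). In that fit 2.8% of all probes passed, 1.26% lower and 1.54% higher. With the pair as a random block, which keeps all 9 arrays, 15 members passed, 13 lower and 2 higher. Of all probes 7.38% passed in that fit, 1290 lower and 1609 higher. The 15 members were the same 7 genes and Cyp1a1, Cyp1b1, Cyp2b13, Cyp2e1, Cyp2g1, Cyp4b1, Cyp4f17 and Cyp51.

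Lung cell markers were measured beside these genes because the samples are whole tissue, in which fewer cells of a type and less RNA per cell cannot be told apart. All 14 type II alveolar cell markers were well above background on every array, in keeping with the lung label. Of 15 club cell markers found among 16 listed, all well above background on every array, 14 were lower in irradiated lungs, with a median difference of −0.69. Their mean relative to the controls ran from −0.30 to 0.25 in controls and from −1.64 to −0.37 in irradiated samples, with irradiated 1 lowest. Chad was called lower among them (−1.72, SE 0.24, adjusted p = 0.0312), while Scgb1a1, the defining secretory protein of club cells, differed by −0.03 (SE 0.07). The part of club cells in the values of Cyp2f2 was not tested.

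Markers of tissue around the lung also varied. All 15 adipocyte markers were lower on average, from −0.41 to 0.68 in controls and from −2.73 to 0.31 in irradiated samples, where irradiated 2 was highest. Cardiac muscle markers stood at −5.12 on irradiated 1 and between −0.55 and 0.37 on all other arrays. Skeletal muscle markers stood at 3.53 on control 3 and at −0.76 or below on the others. Of 20 hepatocyte markers found, 8 passed the stricter call on every array. Among the 20, 13 were higher and 7 lower, with a median difference of 0.24. The mean of the list ran from −0.20 to 0.36 in controls and from −0.39 to 0.95 in irradiated samples. Single differences ran up to 2.77, and only Asgr1 was called, as lower (−2.42, SE 0.34, adjusted p = 0.0312). Of 10 kidney and adrenal markers, 5 passed that call, at −0.20 to 0.16 in controls and −0.07 to 0.33 in irradiated samples. Macrophage markers ran from −0.25 to 0.42 in controls and 0.19 to 0.65 in irradiated samples. Of the 18 found, 12 were higher and 6 lower, with a median difference of 0.55 and single values from −1.59 to 2.39. Groups did not overlap in 6 of the higher genes, beside 3.4% of all genes. Lgals3 was called higher (0.74, SE 0.12, adjusted p = 0.0457). Type I alveolar markers ran from −0.21 to 0.09 in controls and from 0.11 to 0.44 in irradiated samples. The part of these tissues in the P450 values was not tested. Without control 3 and irradiated 1 together, Cyp4a12b (−2.33, adjusted p = 0.0376), Cyp4f15 (−1.71, adjusted p = 0.0404) and Cyp7b1 (1.33, adjusted p = 0.0322) passed, and Cyp4a12a stood at −2.61 with an adjusted p of 0.0567.

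**Figure D5:**
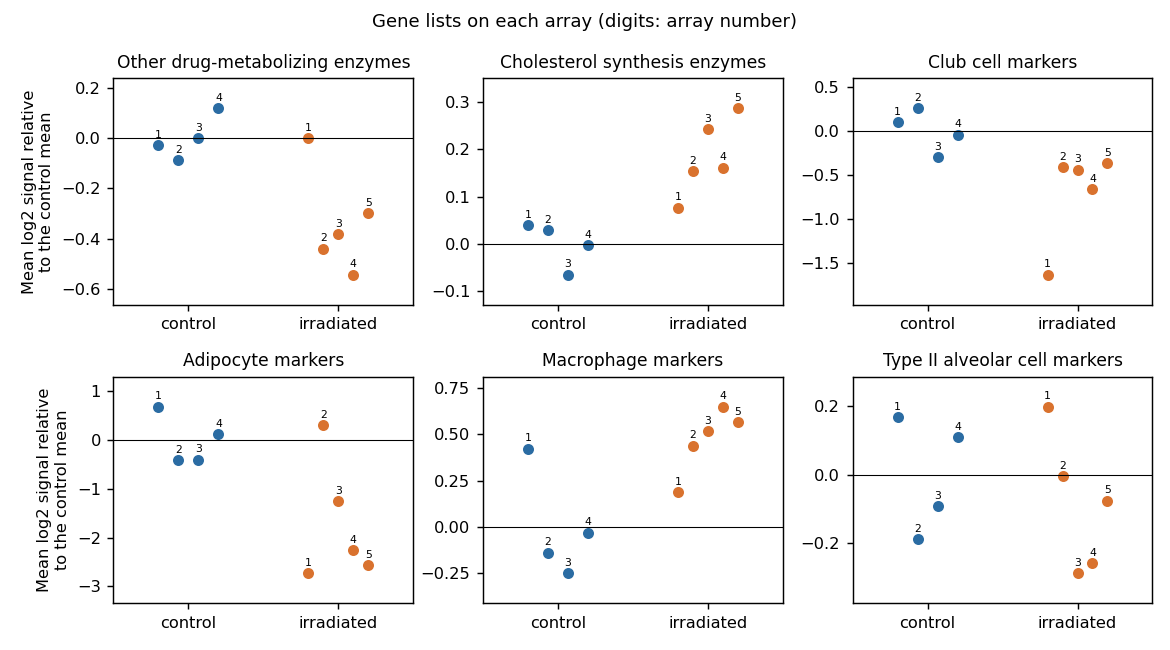
Mean log2 signal of the genes of 6 lists on each array, relative to the mean of the controls (vertical axis, a separate scale for each list), 4 control and 5 irradiated arrays with the array number at each point. Club cell markers are lower on all 5 irradiated arrays and lowest on irradiated 1, cholesterol synthesis enzymes are slightly higher on all 5, and adipocyte markers are low on irradiated 1, 3, 4 and 5.

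Of 19 redox partner and haem supply genes none was called, 11 were lower and 8 higher, and the median difference was −0.04. Por, the P450 reductase that feeds electrons to nearly every microsomal member, read 15.99, 16.47, 16.07 and 15.66 in controls and 15.70, 15.46, 15.81, 15.22 and 15.24 in irradiated samples. Its groups overlapped, and the difference was −0.56 (SE 0.18, adjusted p = 0.270). With scan pairs as a block it was −0.61 and passed (adjusted p = 0.0383), as it did with pairs as a random block (−0.59, adjusted p = 0.0113), and in the authors' table it was −0.42 without overlap of the groups but did not pass (adjusted p = 0.373). Of 24 receptors and factors that control P450 genes, 15 were lower and 9 higher, with a median of −0.10. Hnf4a, a hepatic and intestinal transcription factor, was called higher, by 3.88 (SE 0.55, adjusted p = 0.0312), with signals of 4.36 to 5.53 in controls and 7.14 to 9.80 in irradiated samples. With 1 of the 9 arrays left out the call held only without irradiated 1, with adjusted p up to 0.104, and in the authors' table the difference was 2.47 (adjusted p = 0.057). The list of P450 enzymes without a Cyp symbol held 2 genes, Tbxas1 and Ptgis, the thromboxane and prostacyclin synthases, which differed by 0.67 (SE 0.18, adjusted p = 0.196) and 0.19 (SE 0.10, adjusted p = 0.611), without passing the test.

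Other drug-metabolizing enzymes, among them esterases, transferases and dehydrogenases, were followed as a list. Of 51 found among 53 listed, 39 were lower and 12 higher, with a median difference of −0.27. The carboxylesterase Ces2e rose by 1.76 (SE 0.26, adjusted p = 0.0326). That call held without irradiated 1 and without irradiated 5 but not without any other single array (adjusted p up to 0.116), and the authors' table gave 1.11 (adjusted p = 0.057). Groups did not overlap in 9 of the lower and 2 of the higher genes, beside 1.76% and 3.4% of all genes. The mean of the list was −0.0009 on irradiated 1, within the control range of −0.09 to 0.12, and between −0.54 and −0.30 on the other 4 irradiated arrays.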

How the data were processed

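Lung RNA was measured on 9 one-colour Agilent whole-genome mouse arrays of 44397 spots. The deposited scanner files hold intensity values of each spot, which the authors extracted with Feature Extraction software and which are background-corrected but not normalized between arrays. A deposited table also holds the authors' normalized intensities, quantile-normalized per the study's methods. They were taken to log2 here and used only as an alternative. Here, the processed intensity was taken to log2 and quantile-normalized, spots marked as outliers were left out, and duplicated spots were averaged. Probes were kept where the median signal exceeded the local background 1.4-fold on at least 4 of 9 arrays, as the methods name that ratio. Accessions were matched to the RefSeq gene table (GRCm38.p6), which named 66.1% of 39429 gene probes, and 17 members had more than 1 probe. Files of 2 arrays carried a newer accession list, and the older list was used for all.

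Groups came from the sample titles. Differences were tested, two-sided, with limma 3.58.1 (R 4.3.3, moderated variance with an intensity trend) over all kept probes, with Benjamini-Hochberg adjustment and a threshold of 0.05, after a test on simulated data. Between 72.8% and 89.1% of gene spots on an array were well above background and none was saturated. Precision is limited by the number of arrays. The members and gene lists were chosen with earlier results of these data known. Genes were named by rule: called members, members whose groups do not overlap, the 5 largest differences each way among members well above background on every array of at least one group, the 2 brightest members of each role, 6 well-known members, and members with an array far from its group. A companion gene that the rule would name is not reported here. Exceptions are said to be chosen after their values were seen. The alternatives were another background correction, scaling to the 75th percentile, no filter or a filter on all 9 arrays, the authors' table, each array left out, blocks by replicate number or scan pair, no trend, array weights, a threshold of 0.01 and the mean of a gene's probes.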

Additional observations from a re-analysis of the deposited data

Results flagged for a closer look

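In 16 of 188 groups of values (94 members in 2 groups), 1 array stood farther from the others than Dixon's criterion at its 95% level allows. That is 8.51% of the groups, where chance gives about 5%. The arrays concerned were irradiated 1 in 4 cases, irradiated 2 and irradiated 4 in 3 each, control 3 in 2, and control 1, control 4, irradiated 3 and irradiated 5 in 1 each. Control 2 was not among them.

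Among members well above background on all arrays, Cyp26b1, which clears retinoic acid, was 8.96 in irradiated 2, with the other irradiated samples between 11.89 and 12.96. Cyp2c23, an arachidonic acid epoxygenase, was 7.70 in irradiated 1, with the others between 6.27 and 6.50. Cyp27a1, the sterol 27-hydroxylase, was 8.75 in irradiated 5, with the others between 7.76 and 8.05. In irradiated 4, Cyp46a1, the cholesterol 24-hydroxylase, was 8.92 with the others between 7.86 and 8.13, and Cyp4a10, a fatty acid hydroxylase, was 9.55 with the others between 8.54 and 8.81.

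Some dimmer members had a far array on which the probe was well above background. Cyp3a16 was 6.17 in irradiated 2, with the others between 1.84 and 2.83. Cyp4a30b was 5.86 in irradiated 1, with the others between 1.90 and 2.46. Control 3 held the highest Cyp2b19 value of its group, 5.23, and the lowest Cyp26a1 value, 3.61.

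The remaining cases were dim, with the far array itself not well above background. Cyp2u1 was 4.35 and Cyp2j5 4.10 in irradiated 1, and Cyp2j11 was 3.97 in irradiated 2. Cyp2c39 was 4.37 in irradiated 3 and Cyp1a2 was 2.12 in irradiated 4. Cyp11b2 was 2.68 in control 4, and Cyp4a30b was 1.96 in control 1.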

How the results depend on the processing

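The count of 2 called members stayed at 2 or 3 under another background correction, scaling to the 75th percentile, no filter, a filter on all 9 arrays, all probes of the members, and without control 3 and irradiated 1 together. It was 1 in the authors' normalized table, where the member was Cyp4f15 and neither of the 2, 5 with array weights, 7 with scan pairs as a block, 15 with scan pairs as a random block, 0 with no intensity trend (16 members at an unadjusted p under 0.05) and 0 at an adjusted p under 0.01. Leaving out 1 array gave 0 to 6 members, with 6 without irradiated 1 and 0 without each other array (14 to 19 at an unadjusted p under 0.05, by limma). Over all probes the count of 131 became 197 with the stricter filter, 44 in the authors' table, 1099 and 2899 with scan pairs as a block and as a random block, 44 with no trend, 5 at the threshold of 0.01, and 5 to 476 with 1 array left out, lowest without control 3 and highest without irradiated 1. The count of 8 members whose groups do not overlap was 5 in the authors' table. Groups overlapped there for Cyp4a12a, Cyp4a12b, Cyp1b1, Cyp2d11, Cyp2g1 and Cyp7b1, for Cyp2f2 and Cyp2g1 with percentile scaling, and for Cyp1b1 and Cyp2g1 with another background correction. The median difference of −0.08 over the members was −0.038 with another background correction, −0.23 with percentile scaling, −0.13 with the stricter filter, −0.14 in the authors' table, and −0.11 (without irradiated 1) to −0.044 (without control 3) with 1 array left out. The cause of these shifts was not tested. Low signal limits the 43 members not well above background on every array.

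The replicate numbers do not pair the samples: same-numbered arrays deviated with correlations of −0.17 to 0.06. With the replicate block, 0 members (14 at an unadjusted p under 0.05) and 1 probe passed, Cyp27a1 stood at −0.014 and Cyp2j5 at 0.050.

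For the 40 members followed by name, 35 of 833 values under an alternative changed sign, 23 lost a call and 29 gained one. With another background correction, Cyp26a1 was 0.029 and Cyp2j11 −0.025. With percentile scaling, Cyp2j5 was 0.30 and Nqo1 −0.027. In the authors' table, Cyp11b2 was −0.22, Cyp26a1 0.076, Cyp2c39 −0.13 and Cyp2j11 −0.29. With scan pairs as a block, Cyp2c23 was −0.073, Cyp2b10 −0.051, Cyp11b2 −0.047, Cyp4a30b −0.40 and Nqo1 −0.091, and as a random block Cyp2b10 was −0.0053, Cyp4a30b −0.11 and Nqo1 −0.038. With array weights Cyp11b2 was −0.0045. As the mean of its probes Cyp21a1 was −0.0062 and Cyp3a11 0.066. With 1 array left out, or control 3 and irradiated 1 together, values ran from −0.080 to 0.39 for Cyp2c23, −0.73 to 0.33 for Cyp26b1, −0.051 to 0.13 for Cyp2b10, −0.11 to 0.28 for Cyp11b2, −0.13 to 0.42 for Cyp27a1, −0.68 to 0.29 for Cyp2j5, −0.23 to 1.05 for Cyp3a16, −0.45 to 0.0081 for Cyp4a10, −0.40 to 0.59 for Cyp4a30b and −0.091 to 0.17 for Nqo1.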
